A study of Mus musculus with 9 samples.

Results

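The genes described here are 161 solute carrier (SLC) genes of mouse bone marrow-derived mast cells, out of 15109 genes in the deposited tables. Members were the genes whose symbol consists of Slc, a family number, the letter a and a number within the family, whose deposited log2 values averaged 1 or more over the 9 libraries. A deposited log2 value is log2 of CPM plus 1, and CPM are read counts relative to the library total. Of 206 genes with such a symbol, 40 lay under this threshold, and 5 (Slc2a1, Slc2a3, Slc6a4, Slc7a11 and Slc18a2) were left out by name. The 161 members belong to 41 numbered families, and the mitochondrial carriers of family 25 are the most numerous with 37 genes. Just inside the threshold lay Slc4a4, Slc23a1 and Slc24a5, with mean deposited log2 values of 1.00, 1.02 and 1.13. Just outside it lay Slc29a2, Slc17a8 and Slc25a47, with 0.99, 0.94 and 0.90. The mean level thus chose the members and is reported as a description. Of the members, 6 (Slc4a4, Slc16a4, Slc23a1, Slc24a1, Slc24a5 and Slc25a18) had a group mean under the threshold in at least 1 group and entered through the other groups, and their values are given in a paragraph of their own. Counts over the members and their classes include them unless stated.

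Mast cells were grown from the marrow of wild-type C57BL/6 mice for at least 4 weeks with 30% WEHI-3 conditioned medium and 20% serum, and their poly(A) RNA was sequenced in 3 groups of 3 libraries. Control cells were untreated. BSA cells were sensitised with an IgE antibody to dinitrophenyl and then exposed to dinitrophenyl-coupled BSA, which crosslinks the antibody on the IgE receptor. Taxinine cells received the same sensitisation and antigen after 1 h with taxinine, a taxane from yew. The labels give no dose, antigen time, vehicle or group with taxinine alone, so an effect of taxinine and of its solvent cannot be told apart. They call Control cells untreated, so sensitisation and crosslinking cannot be told apart either. Replicates are labelled biological, but no separate animals or cultures are named, so each p-value reflects the scatter of these 3 libraries a group, and that scatter may be technical.

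SLC proteins carry amino acids, sugars, ions, metals, vitamins, nucleotides and other solutes across the plasma membrane and the membranes of organelles. Some work as exchangers and some are driven by sodium or proton gradients, and the light chains of the heteromeric amino acid transporters reach the cell surface only with a heavy chain such as that encoded by Slc3a2. In mast cells, SLC proteins supply the amino acids and energy substrates of the activated cell, and they also move zinc, amines and nucleotides into granules and other vesicles.

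Total counts were 8975371 to 14116976 per library, and the members took 1.18 to 1.26% of them. The lowest count of any member in any library was 2. Counts were scaled with trimmed-mean (TMM) factors, which were 1.10 to 1.11 in Control, 0.94 to 0.95 in BSA and 0.96 in Taxinine, so CPM below are on TMM-scaled totals. On this scale the mean CPM of all genes summed to 905666 in Control, 1060363 in BSA and 1041314 in Taxinine. Summed levels of marker sets and classes are to be read beside these sums. All 12 mast cell markers examined were in the table, with a summed level of 49490 to 51272 CPM in Control, 54185 to 56870 in BSA and 54028 to 55540 in Taxinine. The summed level of 7 macrophage markers (an 8th, C1qa, was not listed) was 73.3 to 75.95 CPM in Control, 85.6 to 94.9 in BSA and 77.0 to 81.7 in Taxinine. Siglecf, the 1 of 3 eosinophil markers in the table, stood at 3.503 to 5.37 CPM in Control, 13.9 to 17.01 in BSA and 11.3 to 13.3 in Taxinine, higher after antigen by edgeR's adjusted test, while Prg2 and Epx were not listed. The 3 basophil markers summed to 1317 to 1341 CPM in Control, 1289 to 1336 in BSA and 1200 to 1215 in Taxinine, with 2 higher and 1 lower after antigen. Of 4 erythroid markers 2 were listed, at a sum of 31.9 to 40.6 CPM, 1 of them higher after antigen, and none of the 3 megakaryocyte markers was called. Of 7 neutrophil and 6 lymphocyte markers 1 each was listed, at no more than 0.95 and 0.76 CPM, and none of 3 dendritic cell markers was listed. The part of these differences in the results was not tested.

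Levels between genes are compared as CPM per kilobase of annotated exon. On that scale the members with the highest means over the libraries were Slc7a5 and Slc3a2, the light and heavy chain of the large neutral amino acid exchanger, followed by Slc25a5, an ADP/ATP carrier of the inner mitochondrial membrane, Slc7a8, a second light chain, and Slc48a1, a haem transporter. In Control, Slc3a2 stood at 284 ± 11.05 CPM per kilobase (mean ± SD, n = 3) and Slc7a5 at 232 ± 9.44. In BSA the order of the pair was the other way round, with Slc7a5 at 409 ± 3.99 and Slc3a2 at 374 ± 11.5, and in Taxinine they stood at 437 ± 12.3 and 372 ± 5.43. The next places in Control were held by Slc25a5 with 208 ± 8.99, Slc7a8 with 166 ± 1.66 and Slc48a1 with 162 ± 9.19 CPM per kilobase. The last 2 of these lay within their spread of each other. The other members among the 10 highest by mean over the libraries stood lower: in Control, Slc25a3, the mitochondrial phosphate carrier, was at 62.7 ± 0.907, the taurine transporter Slc6a6 at 58.3 ± 0.697, the vesicular zinc transporter Slc30a2 at 54.9 ± 0.723, Slc38a2 at 54.2 ± 1.23 and Slc20a1 at 46.6 ± 1.38 CPM per kilobase. Slc30a2 and Slc38a2 were within their spread there too. The median member stood at 4.94 CPM per kilobase in Control, 4.82 in BSA and 5.18 in Taxinine. The 10 members with the most counts held 48.7% of the members' summed CPM in Control, 54.4% in BSA and 55.2% in Taxinine.

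**Figure D1:**
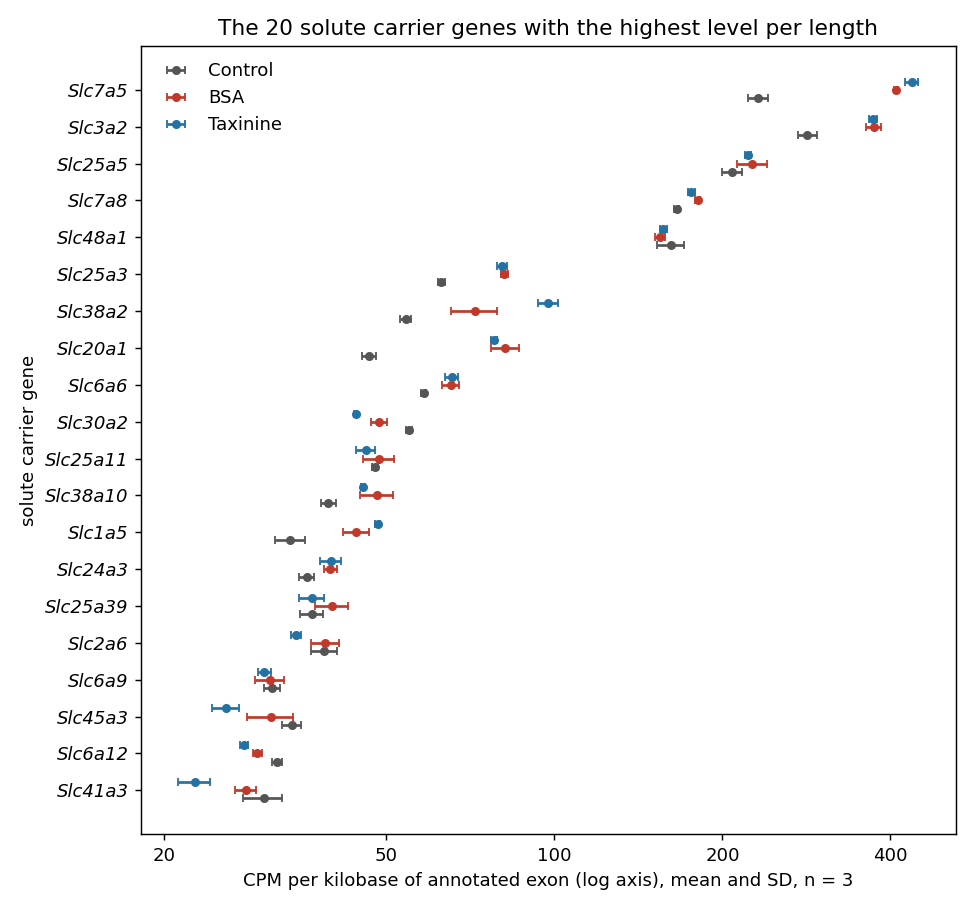
Level of the 20 solute carrier genes with the highest mean per exon length, as CPM per kilobase on a log axis. Points are group means and bars SD over 3 libraries. Slc7a5 and Slc3a2 lie at the top in each group, and Slc7a5 moves from 232 in Control to 409 in BSA and 437 in Taxinine.

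Members that rose after antigen include the creatine transporter Slc6a8, the ascorbate importer Slc23a2, the amino acid exchanger gene Slc7a5, the phosphate importer Slc20a1 and the lactate exporter Slc16a3. Members that fell include the mitochondrial Slc25a32, the lysosomal Slc36a1, the zinc importer Slc39a3 and the glucose 6-phosphate carrier Slc37a4. Against Control, 33 members rose and 29 fell by edgeR's quasi-likelihood test with Benjamini-Hochberg adjustment over all 15109 genes (adjusted p under 0.05), and 99 did not pass. That is 38.5% of the members, beside 34% of all genes and 41.5% of the 11627 genes at or above the same level threshold. Rises made up 20.5% of the members (16.2% of all genes, 19.7% of those at the threshold) and falls 18.01% (17.8% and 21.8%). The members' share was thus near the background. The median log2 fold change was -0.021 over the members and -0.0041 over all genes. Among the 155 members over the threshold in every group, 30 rose and 28 fell. Most changes were small: 5 members rose and 1 fell at least 2-fold, 6 in all, while 6.22% of all genes and 5.44% of those at the threshold were called at that size. Of these 6, 4 are among the genes that entered through only some groups (Slc25a18, Slc24a1, Slc23a1 and Slc16a4). Among the 155 members over the threshold in every group, 2 rose at least 2-fold and none fell by that much. In bulk RNA, fewer cells of a type and less RNA per cell cannot be told apart.

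The balance of rises and falls rested on the scaling. With plain library totals instead of TMM, the median of all genes moved to -0.23 and that of the members to -0.25. Then 18 members were called higher and 95 lower, beside 1081 and 6896 of all 15109 genes (52.8% called). Of the 33 members called higher with TMM, 18 stayed higher and all 29 called lower stayed lower. Of the other 15, 5 (Slc6a6, Slc7a8, Slc24a3, Slc25a5 and Slc43a3) had a log2 fold change below 0 with plain totals, and Slc7a8 and Slc25a5 were then called lower. The other 10 kept their direction and were no longer called: Slc5a3, Slc8a1, Slc15a4, Slc16a1, Slc16a6, Slc31a1, Slc38a10, Slc39a1, Slc41a1 and Slc45a4. Changes are given below relative to the TMM scale. Of the 62 calls, 50 survived the removal of any single library. The 12 that did not include Slc2a8, Slc4a2, Slc5a3, Slc7a7, Slc8a1, Slc24a3, Slc25a5, Slc25a36, Slc25a37, Slc25a42 and Slc43a3.

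**Figure D2:**
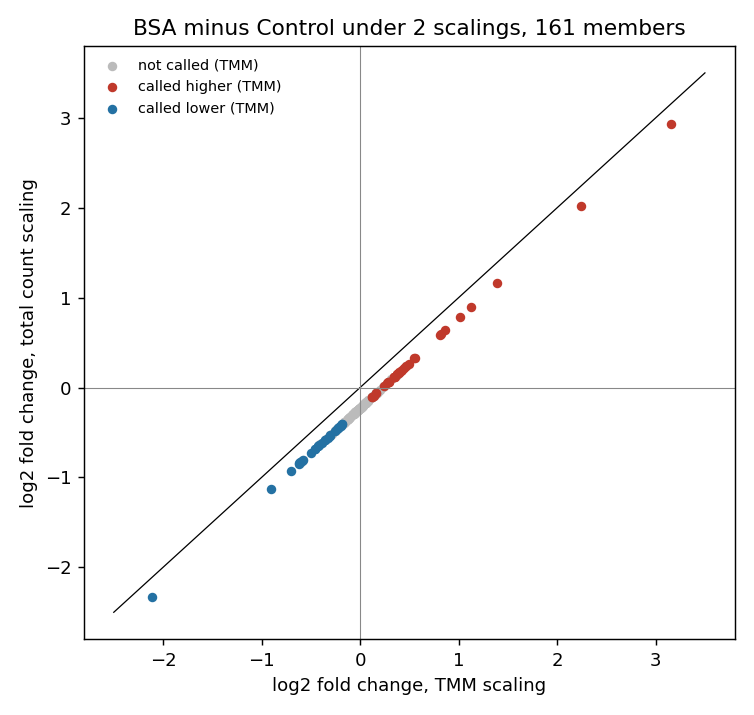
Log2 fold change of BSA against Control for the 161 members under TMM scaling (horizontal) and plain total counts (vertical), coloured by the TMM call. The black line marks equal values, and all points lie below it, by about the -0.23 by which the median of all genes moved.

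**Figure D3:**
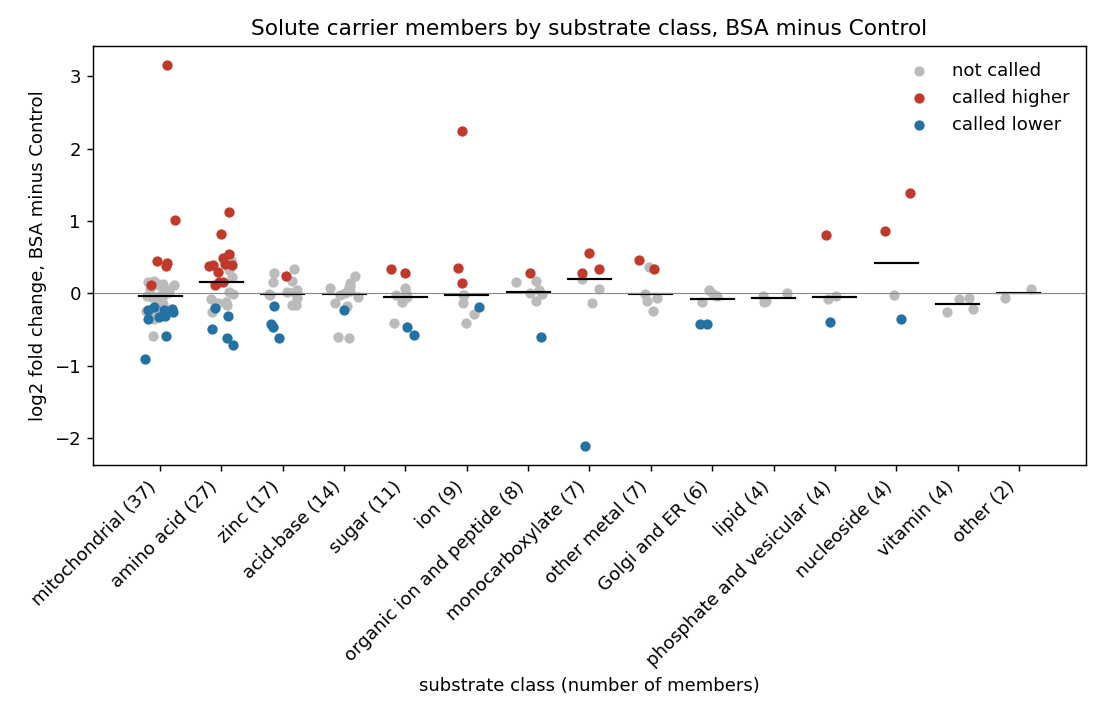
Log2 fold change of BSA against Control (vertical) for each member, grouped by substrate class with the number of members in brackets. Short black lines are class medians and colours show the calls. Amino acid carriers hold 12 of the 33 rises, and mitochondrial carriers 10 of the 29 falls. The nucleoside class includes the 2 ascorbate transporters of family 23.

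Amino acid carriers were the class with the most rises: of 27 members, 12 rose and 5 fell, and the median log2 fold change was 0.16. Classes follow the family number alone, so this class also holds carriers of other substrates, such as the creatine transporter Slc6a8. Rises were 44.4% and falls 18.5% of the class, beside 19.7% and 21.8% of the genes at the threshold, and the difference was not tested. Their summed level was 5149 CPM in Control, 6686 in BSA and 6985 in Taxinine, beside 905666, 1060363 and 1041314 CPM for all genes. Slc6a8, the creatine transporter (chrX:73673150-73682502, GRCm38), stood at 62.6, 63.03 and 61.2 CPM in the Control libraries, 129.8, 143 and 135 in the BSA libraries and 159, 162 and 161 in the Taxinine libraries. Each BSA library was above each Control library and each Taxinine library above each BSA library. The log2 fold change of BSA against Control was 1.13 ± 0.050 (SE; edgeR adjusted p = 1.18e-22). Slc7a5, which imports leucine and other large neutral amino acids in exchange for glutamine (chr8:121881150-121907694, GRCm38), stood at 838, 899 and 839 CPM in the Control libraries, 1503, 1533 and 1519 in the BSA libraries and 1569, 1632 and 1658 in the Taxinine libraries. The Control libraries lay far below the other 6. Its log2 fold change after antigen was 0.82 ± 0.038 (edgeR adjusted p = 6.10e-22).

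Slc3a2, its heavy chain (chr19:8706882-8723369, GRCm38), stood at 974, 1047 and 986 CPM in the Control libraries, 1296, 1295 and 1366 in the BSA libraries and 1304, 1300.5 and 1335 in the Taxinine libraries. The 6 antigen-exposed libraries did not overlap Control, and the log2 fold change was 0.40 ± 0.038 (edgeR adjusted p = 1.57e-11), smaller than that of Slc7a5. Slc43a2, a uniporter of large neutral amino acids, stood at 50.6, 48.8 and 49.4 CPM in Control and 70.7, 78.02 and 69.1 in BSA, without overlap, with a log2 fold change of 0.55 ± 0.058 (edgeR adjusted p = 1.34e-10). The sodium-coupled glutamine and alanine carrier Slc38a1 stood at 176, 164 and 165 CPM in Control and 231, 248 and 232 in BSA, again without overlap (log2 fold change 0.49 ± 0.046, edgeR adjusted p = 4.02e-12). Smaller rises were those of its relative Slc38a2 (log2 fold change 0.41), the neutral amino acid exchanger Slc1a5 (0.39), the arginine and lysine carrier Slc7a1 (0.38), Slc38a10 (0.29), Slc43a3 (0.16), Slc6a6 (0.16) and Slc7a8 (0.12). The last 3 had values below 0 with plain totals.

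The 5 amino acid carriers that fell include lysosomal ones. Slc36a1, a proton-coupled carrier of small amino acids found on lysosomes (chr11:55204350-55236330, GRCm38), stood at 67.8, 63.5 and 63 CPM in the Control libraries, 35.5, 43.5 and 40.4 in the BSA libraries and 41.7, 40.5 and 37.2 in the Taxinine libraries. The Control libraries lay above all 6 others, with a log2 fold change of -0.70 ± 0.065 (edgeR adjusted p = 3.88e-12). Slc38a7, a lysosomal glutamine exporter, stood at 17.8, 18.6 and 19.9 CPM in Control and 11.99, 14.7 and 13.2 in BSA (log2 fold change -0.50 ± 0.096, edgeR adjusted p = 4.73e-05). Slc1a4, a carrier of serine, alanine and cysteine, and Slc36a4 had log2 fold changes of -0.31 and -0.20. Slc7a7, a light chain for cationic amino acids, had -0.62 ± 0.23 at a low level (2.99 ± 0.541 CPM in Control). Its edgeR adjusted p of 0.0311 rose to between 0.0507 and 0.157 without Control replicate 2 or 3 or BSA replicate 2 or 3, and 232 bases of its exons overlap Oxa1l on the other strand. The 10 amino acid carriers that did not pass include the glycine transporter Slc6a9 (-0.011) and the lysosomal arginine sensor Slc38a9 (0.019).

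Of 37 mitochondrial carriers 6 rose and 10 fell, with a median log2 fold change of -0.041. Rises were 16.2% and falls 27.03% of the class, near the 19.7% and 21.8% of the genes at the threshold. Slc25a33, a carrier of pyrimidine nucleotides (chr4:149744036-149774277, GRCm38), stood at 3.31, 2.88 and 3.93 CPM in the Control libraries, 6.60, 7.49 and 6.27 in the BSA libraries and 5.90, 7.99 and 6.95 in the Taxinine libraries. All BSA and Taxinine libraries were above all Control ones, and the log2 fold change after antigen was 1.01 ± 0.16 (edgeR adjusted p = 1.85e-06), although 14.9% of its exon length overlaps Gm13068 on the other strand. Slc25a3, the phosphate carrier, stood at 343, 353 and 349 CPM in Control and 443, 455 and 456 in BSA, with a log2 fold change of 0.38 ± 0.040 (edgeR adjusted p = 1.56e-10). The carnitine-acylcarnitine carrier Slc25a20 and the ATP-magnesium/phosphate carrier Slc25a25 rose by 0.45 and 0.42 on the log2 scale. The ADP/ATP carrier Slc25a5 had 0.12 (edgeR adjusted p = 0.0312), a value that was -0.11 with plain totals. That call was lost without Control replicate 1 or 3 or BSA replicate 1 or 3 (edgeR adjusted p 0.0629 to 0.201), and Slc25a5 shares near-identical sequence with pseudogenes, so its reads are uncertain. Its paralog Slc25a4 had 0.040 ± 0.079 and did not pass.

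Among the mitochondrial falls, Slc25a32, a carrier linked to folate and flavin import (chr15:39091231-39112716, GRCm38), was the largest outside the low-level genes. It stood at 17.8, 16.4 and 15.6 CPM in the Control libraries, 8.96, 8.59 and 9.09 in the BSA libraries and 11.8, 13.2 and 12.5 in the Taxinine libraries. The 3 groups did not overlap, with Taxinine between BSA and Control, and the log2 fold change after antigen was -0.90 ± 0.10 (edgeR adjusted p = 1.21e-09). Slc25a42, which imports coenzyme A, had a log2 fold change of -0.59 ± 0.17 (edgeR adjusted p = 0.0045), and that p was 0.0644 without Control replicate 3. The others include Slc25a16 (-0.33), Slc25a45 (-0.31), Slc25a46, of the outer membrane (-0.25), the branched-chain amino acid carrier Slc25a44 (-0.23), the NAD carrier Slc25a51 (-0.23), the iron importer Slc25a37 (-0.21) and Slc25a36 (-0.18), another pyrimidine nucleotide carrier. Slc25a33 and Slc25a36, which share a class of substrate, thus had log2 fold changes of opposite sign. The call of Slc25a36 was among those lost when a single library was left out.

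Phosphate, ascorbate and lactate carriers held 3 of the larger rises. Slc20a1, a sodium-coupled phosphate importer (chr2:129198764-129211616, GRCm38), stood at 269, 255 and 256 CPM in the Control libraries, 442, 486 and 439 in the BSA libraries and 439, 429.6 and 436 in the Taxinine libraries, without overlap between Control and the others. The log2 fold change was 0.81 ± 0.043 (edgeR adjusted p = 5.25e-20). An antisense gene over 452 bases of its exons, 9830144P21Rik, had 0.58, and without a stated strand setting reads of the pair cannot be told apart. Slc23a2, a sodium-coupled ascorbate importer (chr2:132052496-132145108, GRCm38), stood at 100.9, 90.5 and 95.97 CPM in the Control libraries, 169, 186 and 169 in the BSA libraries and 159.7, 157 and 149 in the Taxinine libraries. The 3 groups did not overlap, Taxinine lying between the other two, and the log2 fold change after antigen was 0.87 ± 0.050 (edgeR adjusted p = 1.39e-18). Slc16a3, a proton-coupled exporter of lactate (chr11:120948480-120960868, GRCm38), stood at 81.5, 87.2 and 83.6 CPM in the Control libraries, 132, 119 and 121 in the BSA libraries and 112, 106 and 111 in the Taxinine libraries, with Taxinine again between the others and a log2 fold change after antigen of 0.56 ± 0.051 (edgeR adjusted p = 2.24e-12). Of the 7 monocarboxylate members 3 rose: Slc16a3, the lactate and pyruvate carrier Slc16a1 (0.34) and Slc16a6 (0.29). Slc16a4, given below, fell. Rises were 42.9% and falls 14.3% of the class, beside 19.7% and 21.8% of the genes at the threshold, and the difference was not tested. With plain totals the calls of Slc16a1 and Slc16a6 were lost. Of the other phosphate and vesicular members, the vesicular nucleotide transporter Slc17a9 fell by 0.39 on the log2 scale, and Slc17a5 (-0.072) and Slc20a2 (-0.029) did not pass.

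**Figure D4:**
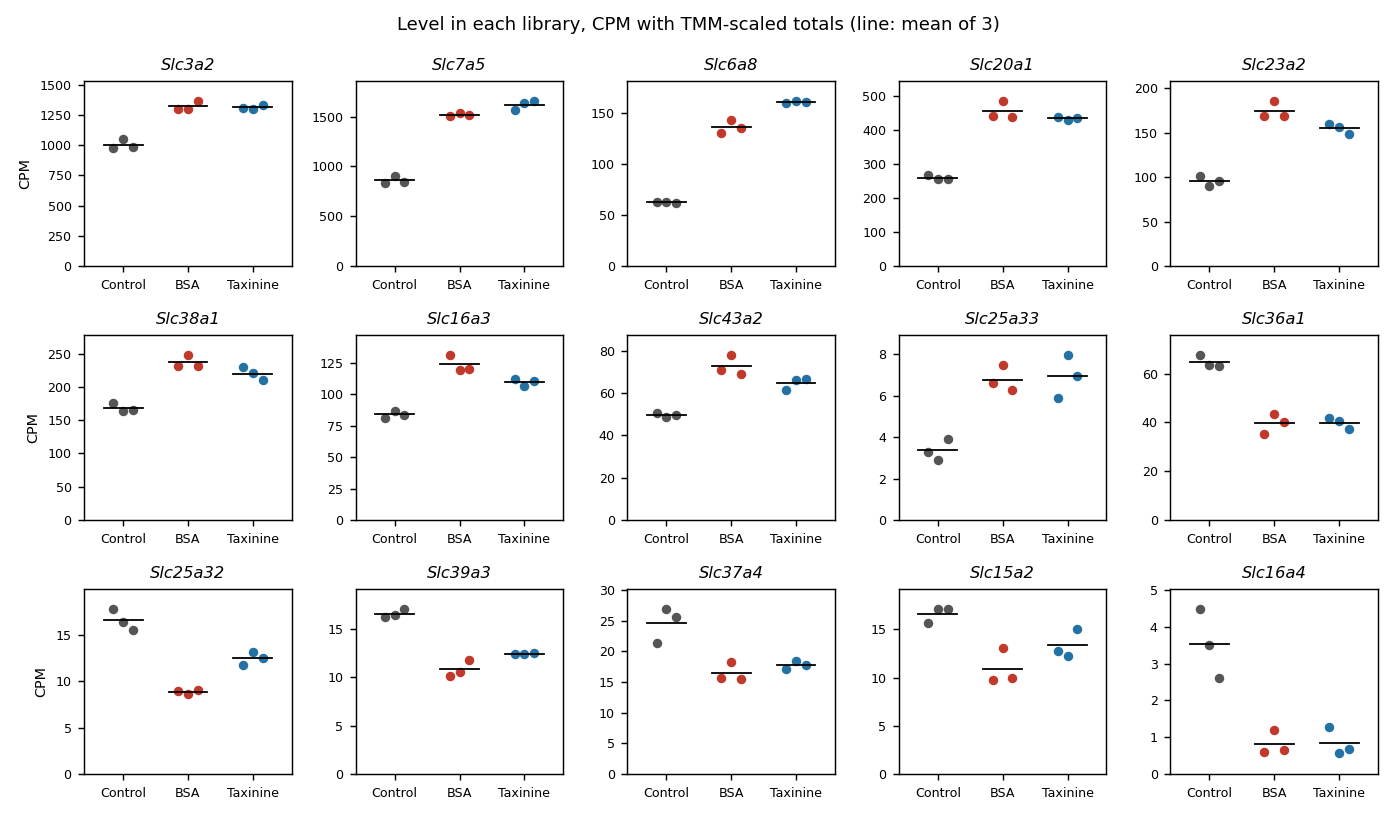
Level of 15 members in each of the 9 libraries, in CPM on TMM-scaled totals, with a line at the mean of 3. Each vertical axis starts at 0. In the first 9 panels, Slc3a2 to Slc25a33, the BSA libraries lie above Control, and in the last 6, Slc36a1 to Slc16a4, below it.

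Of 17 zinc transporters 1 rose and 4 fell. Falls were 23.5% of the class, near the 21.8% of the genes at the threshold. Slc39a3, which imports zinc, stood at 16.3, 16.4 and 17.1 CPM in the Control libraries, 10.1, 10.6 and 11.8 in the BSA libraries and 12.4, 12.4 and 12.5 in the Taxinine libraries, with all Control libraries above all others and a log2 fold change of -0.62 ± 0.098 (edgeR adjusted p = 1.64e-06). Slc39a9, a zinc transporter of the secretory pathway, fell by 0.42, Slc30a6, which works in the Golgi, by 0.46 and Slc30a2 by 0.18 on the log2 scale, and Slc39a1, at the plasma membrane, rose by 0.24. The plasma membrane zinc exporter Slc30a1 had -0.15 ± 0.084 and did not pass (edgeR adjusted p = 0.169). Among 7 members for other metals, the copper importer Slc31a1 and the magnesium transporter Slc41a1 rose by 0.34 and 0.47, 2 calls that were lost with plain totals, and none fell. Rises were 28.6% of this class, beside 19.7% of the genes at the threshold. Slc48a1 had -0.064 ± 0.042 and did not pass (edgeR adjusted p = 0.254).

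Of 11 sugar carriers 2 rose and 2 fell, 18.2% each, beside 19.7% and 21.8% of the genes at the threshold. Slc37a4, which takes glucose 6-phosphate into the endoplasmic reticulum, stood at 21.4, 26.9 and 25.6 CPM in Control and 15.7, 18.2 and 15.6 in BSA, without overlap (log2 fold change -0.58 ± 0.091, edgeR adjusted p = 1.46e-06). The intracellular hexose carrier Slc2a8 had -0.46, a call lost without Control replicate 3, BSA replicate 1 or BSA replicate 2 (edgeR adjusted p 0.108 to 0.163). Slc45a4 rose by 0.34, and the myo-inositol importer Slc5a3 by 0.29, with an edgeR adjusted p of 0.102 without BSA replicate 2. Slc5a3 shares 159 exon bases on the same strand with Mrps6, which had 0.78 after antigen (edgeR adjusted p = 1.42e-06). The part of shared reads was not tested. Among 8 carriers of organic ions and peptides, the peptide importer Slc15a2 stood at 15.7, 17.1 and 17.1 CPM in Control and 9.72, 13.1 and 9.91 in BSA, without overlap, and fell by 0.61 (edgeR adjusted p = 1.38e-05). Its lysosomal relative Slc15a4 rose by 0.28.

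For the remaining classes the share called is given, beside 41.5% of the genes at the threshold. Of 14 acid-base carriers 1 fell (7.14%), the chloride-bicarbonate exchanger Slc4a2 (log2 fold change -0.22). This call was lost without Control replicate 2 or BSA replicate 1 (edgeR adjusted p 0.1002 and 0.0666), and 13.7% of the gene's exon length overlaps Fastk, which had -0.22. Of 9 ion carriers outside that class, 3 rose and 1 fell (44.4%). The calcium exchangers Slc24a3 and Slc8a1 rose by 0.14 and 0.35 on the TMM scale (-0.089 and 0.12 with plain totals, neither called). Slc24a3 was also lost without Control replicate 2 or 3 or BSA replicate 2 (edgeR adjusted p 0.0513 to 0.0600). In the Golgi and endoplasmic reticulum class of 6 (33.3% called), the acetyl-CoA transporter Slc33a1 and the nucleotide sugar transporter Slc35a5 fell by 0.42 and 0.43. Of 4 members of the nucleoside class 2 rose, both ascorbate importers of family 23, and 1 fell (75%). The lysosomal nucleoside carrier Slc29a3 fell by 0.36. None of the 4 lipid, 4 vitamin and 2 unclassified members (Slc49a4 with 0.063 and Slc66a2 with -0.059) passed edgeR's adjusted threshold.

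The largest log2 fold changes belonged to genes near the lower limit of the data, and all had entered through 1 or 2 groups only. Slc25a18, a mitochondrial glutamate carrier, had 2, 7 and 3 counts in the Control libraries, 22, 34 and 32 in the BSA libraries and 18, 14 and 33 in the Taxinine libraries, a log2 fold change after antigen of 3.15 ± 0.41 (edgeR adjusted p = 1.89e-08). Of its exon bases 32 overlap Atp6v1e1 on the other strand, which had 0.69 (edgeR adjusted p = 1.99e-15), and the part of shared reads was not tested. Slc24a1, a sodium, potassium and calcium exchanger, had 8, 7 and 8 counts in Control, 29, 26 and 33 in the BSA libraries and 19, 23 and 25 in the Taxinine libraries (2.24 ± 0.32, edgeR adjusted p = 2.32e-07). Slc16a4, of the monocarboxylate family, had 68, 55 and 40 counts in Control, 8, 15 and 7 in the BSA libraries and 11, 6 and 9 in the Taxinine libraries (-2.11 ± 0.30, edgeR adjusted p = 1.64e-07). In all 3 genes Control did not overlap the other groups. The second ascorbate importer Slc23a1 had 14, 6 and 5 counts in Control and 18, 23 and 12 in BSA, and rose by 1.39 (edgeR adjusted p = 0.00352). Its counts in Control replicate 1 and BSA replicate 3 overlap, although its CPM do not. The remaining genes of this set, Slc24a5 and Slc4a4, were not called after antigen or for Taxinine against BSA. Mean deposited log2 values in Control, BSA and Taxinine were 1.27, 0.93 and 1.19 for Slc24a5, and 1.00, 1.03 and 0.98 for Slc4a4.

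For 3 members with changes after antigen, the 250 bases before the start site in RefSeq (GRCm38.p6) show what stretch of sequence lies upstream of a gene that rose or fell. Capitals mark matches, on either strand, to 7 short motifs of factors known from activated mast cells and from stress: CRE (TGACGTCA), AP-1 (TGANTCA), EGR (GCGNGGGCG), NFAT (TGGAAA), ATF4 (TGATGNAA), E-box (CACGTG) and the heat shock element. The sequences run 5′ to 3′ on the gene's strand.
Slc25a33: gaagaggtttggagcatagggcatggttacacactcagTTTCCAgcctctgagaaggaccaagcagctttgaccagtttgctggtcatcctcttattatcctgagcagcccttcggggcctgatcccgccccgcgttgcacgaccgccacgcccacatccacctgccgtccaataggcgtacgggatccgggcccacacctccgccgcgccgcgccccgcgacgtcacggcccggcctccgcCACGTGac
Slc23a2: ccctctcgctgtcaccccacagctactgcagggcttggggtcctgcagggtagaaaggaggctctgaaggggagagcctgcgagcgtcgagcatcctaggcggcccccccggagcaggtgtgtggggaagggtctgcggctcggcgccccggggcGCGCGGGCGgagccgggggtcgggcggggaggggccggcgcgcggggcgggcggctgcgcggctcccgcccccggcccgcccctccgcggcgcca
Slc36a1: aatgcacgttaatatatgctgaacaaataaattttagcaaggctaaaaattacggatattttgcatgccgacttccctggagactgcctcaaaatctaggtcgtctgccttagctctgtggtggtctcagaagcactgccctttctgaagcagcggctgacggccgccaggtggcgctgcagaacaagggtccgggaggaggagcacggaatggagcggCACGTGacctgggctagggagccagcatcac
The Slc25a33 window is chr4:149774268-149774517 on the minus strand and holds an NFAT match 212 to 207 bases and an E-box 8 to 3 bases before the start site. That of Slc23a2 is chr2:132145109-132145358, minus strand, with an EGR match 95 to 87 bases before the start, and that of Slc36a1 is chr11:55204090-55204339, plus strand, with an E-box at 31 to 26 bases. A window was found for 120 of the 161 members and 10591 of the 15109 genes. The share of windows with a match was, for all genes and then for members, 2.72% and 1.67% for CRE, 4.38% and 7.5% for AP-1, 8.66% and 11.7% for EGR, 15.1% and 14.2% for NFAT, 2.04% and 3.33% for ATF4, 8.18% and 11.7% for the E-box and 0.312% and 0.833% for the heat shock element. The E-box was in 5 of 21 windows of members that fell after antigen (23.8%) and in 3 of 24 of those that rose (12.5%). EGR went the other way, in 2 of 21 (9.52%) and 4 of 24 (16.7%). In the same order, NFAT was in 3 and 3 windows, AP-1 in 1 and 2, CRE in 1 and 0, and ATF4 in 1 and 0. The heat shock element was in 0 of either. These differences rest on few windows and were not tested. A match is a description of the letters and not a bound site.

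Members higher with taxinine before antigen than in BSA include the myo-inositol importer Slc5a3, the sulfate importer Slc26a2, the neutral amino acid importer Slc38a2 and the creatine transporter Slc6a8. Members that were lower include the GABA carrier Slc6a13 and the magnesium carrier Slc41a3. Of the 161 members 11 rose and 7 fell by edgeR's adjusted test, which is 11.2% of the members beside 6.98% of all genes and 8.98% of the genes at or above the level threshold. Rises were 6.83% of the members (2.86% of all genes, 3.68% of those at the threshold), and falls 4.35% (4.12% and 5.3%). The median log2 fold change was 0.0048 over the members and 0.0021 over all genes. No member changed 2-fold (0.146% of all genes and 0.0946% of those at the threshold did), and of the called members 1, Slc5a3, differed at least 1.5-fold. This comparison and that of BSA with Control share the BSA libraries, so a BSA library that is high or low moves both.

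Slc5a3, the sodium-coupled importer of the osmolyte myo-inositol (chr16:92058322-92087473, GRCm38), stood at 36.8, 31.7 and 33.6 CPM in the Control libraries, 35.1, 48.1 and 41.7 in the BSA libraries and 67.7, 65.8 and 67.3 in the Taxinine libraries. All 3 Taxinine libraries were above every other, and BSA and Control overlapped. Its log2 fold change against BSA was 0.69 ± 0.074 (edgeR adjusted p = 5.46e-09). Slc5a3 shares 159 exon bases on the same strand with Mrps6, which encodes a protein of the mitochondrial ribosome and itself had 0.41 (edgeR adjusted p = 0.0183), and the part of shared reads was not tested. Slc38a2, a sodium-coupled importer of glutamine and alanine (chr15:96687392-96699730, GRCm38), stood at 491, 477 and 469 CPM in the Control libraries, 594, 707 and 611 in the BSA libraries and 850.3, 899.5 and 833 in the Taxinine libraries. The 3 groups formed steps without overlap, with log2 fold changes of 0.41 ± 0.047 for BSA against Control and 0.43 ± 0.046 for Taxinine against BSA (edgeR adjusted p = 4.93e-09). Slc6a8, whose values are given above, had 0.24 ± 0.048 for Taxinine against BSA (edgeR adjusted p = 6.47e-04).

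Slc26a2, which imports sulfate for the sulfation of proteoglycans, stood at 28.03, 24.7 and 26.6 CPM in the Control libraries, 22.5, 26.01 and 21.4 in the BSA libraries and 33.6, 30.99 and 29.8 in the Taxinine libraries. The Taxinine libraries were above both other groups, BSA and Control overlapped, and the log2 fold change against BSA was 0.42 ± 0.083 (edgeR adjusted p = 5.95e-04). Slc25a32, the mitochondrial carrier that fell after antigen, was higher in Taxinine than in BSA by 0.50 ± 0.11 (edgeR adjusted p = 0.00321) and lower than in Control by -0.40 ± 0.099 (edgeR adjusted p = 0.00122). These 5 members, Slc5a3, Slc6a8, Slc25a32, Slc26a2 and Slc38a2, were higher in all 16 alternatives, those without each library included.

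The 4 members that were lower than in BSA in all 16 alternatives were Slc6a13, Slc16a6, Slc41a3 and Slc45a3. Slc6a13, a carrier of GABA and taurine (chr6:121300227-121337733, GRCm38), stood at 30.3, 37.6 and 35.4 CPM in the Control libraries, 31.4, 27.8 and 33.2 in the BSA libraries and 22.9, 22.2 and 23.6 in the Taxinine libraries, with the Taxinine libraries below all others, BSA and Control overlapping, and a log2 fold change against BSA of -0.42 ± 0.087 (edgeR adjusted p = 9.74e-04). Slc16a6, of the monocarboxylate family, stood at 39.6, 30.7 and 37.7 CPM in the Control libraries, 42.7, 42.9 and 46.4 in the BSA libraries and 34.6, 36.9 and 34 in the Taxinine libraries. BSA was above both other groups, which overlapped, and Taxinine against BSA gave -0.32 ± 0.077 (edgeR adjusted p = 0.00493). Of its exon length 21.5% overlaps Amz2 on the other strand, which had -0.075 in this comparison. The magnesium carrier Slc41a3 stood at 81.8, 95.5 and 85.8 CPM in the Control libraries, 81.2, 78.02 and 85.2 in the BSA libraries and 66.1, 70.3 and 61.6 in the Taxinine libraries, lowest in Taxinine, with -0.31 ± 0.062 (edgeR adjusted p = 7.75e-04). Slc45a3, of a family of putative sugar carriers, stood at 119.8, 116 and 126 CPM in the Control libraries, 123, 108 and 102 in the BSA libraries and 97.3, 90.7 and 87.3 in the Taxinine libraries. Its Taxinine libraries lay below the others, and the log2 fold change was -0.28 ± 0.058 (edgeR adjusted p = 0.00121).

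The other 9 calls depended on single libraries. Slc16a1 rose by 0.29 (edgeR adjusted p = 0.00761, 0.0881 without BSA replicate 2) and Slc25a30 by 0.33 (0.0119, 0.0795 without Taxinine replicate 2). Slc30a1 rose by 0.32, with an adjusted p of 0.0505 to 0.0637 without BSA replicate 3, Taxinine replicate 1 or Taxinine replicate 2. The lysosomal nucleoside carrier Slc29a3 rose by 0.41, with 0.0652 to 0.149 without BSA replicate 1 or 2 or Taxinine replicate 1 or 2. Slc29a3 and Slc39a9 work on internal membranes, and Slc16a1, Slc19a2 and Slc30a1 mainly at the cell surface. The thiamine carrier Slc19a2 rose by 0.34 (0.0507 to 0.159 without BSA replicate 1 or 3 or any 1 Taxinine library) and Slc39a9 by 0.21 (0.0552 to 0.129 without any 1 BSA library or Taxinine replicate 1 or 2). On the lower side, Slc2a6, a hexose carrier of lysosomes, had -0.17 (0.0523 to 0.202 without BSA replicate 1 or 3 or any 1 Taxinine library). Slc16a3 had -0.17 (0.0608 to 0.199 without BSA replicate 1 or any 1 Taxinine library) and Slc23a2 -0.17 (0.0795 to 0.176 without BSA replicate 2 or Taxinine replicate 2 or 3). The calls of Slc2a6, Slc16a3 and Slc23a2 were also lost with plain totals. These gave 14 rises and 4 falls among the members, beside 646 and 476 among all 15109 genes (7.43% called).

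**Figure D5:**
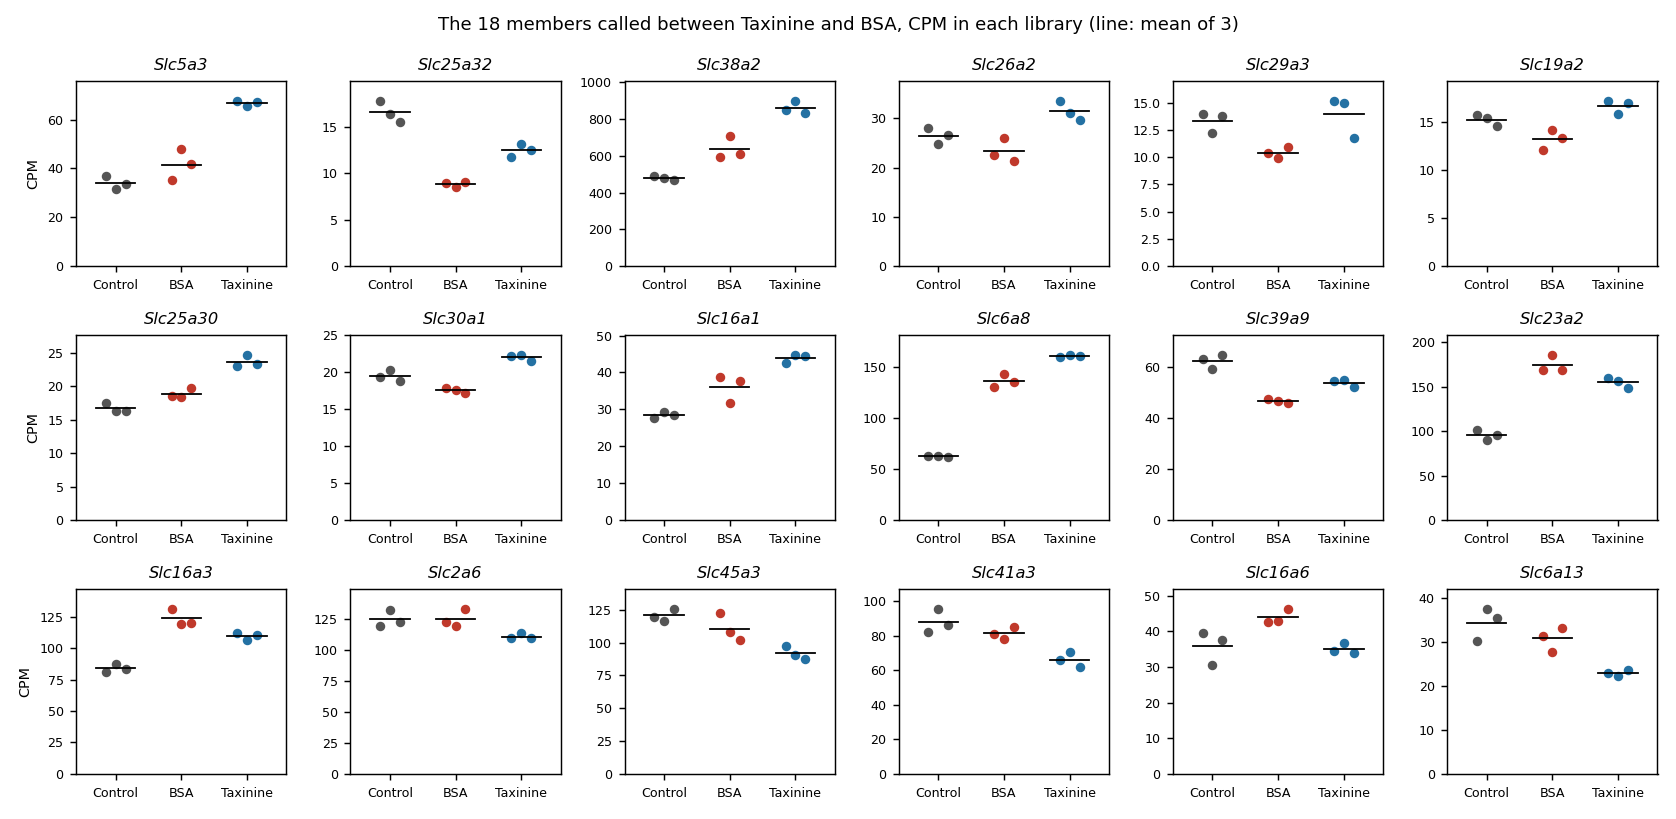
Level in each of the 9 libraries of the 18 members called between Taxinine and BSA, in CPM on TMM-scaled totals, from the largest rise (Slc5a3) to the largest fall (Slc6a13). Lines are means of 3 and each vertical axis starts at 0. The Taxinine points of Slc5a3 lie above those of both other groups, and those of Slc6a13 below.

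The same 250-base window, from RefSeq (GRCm38.p6) with capitals for matches as above, is shown for 3 members that differed with taxinine.
Slc5a3: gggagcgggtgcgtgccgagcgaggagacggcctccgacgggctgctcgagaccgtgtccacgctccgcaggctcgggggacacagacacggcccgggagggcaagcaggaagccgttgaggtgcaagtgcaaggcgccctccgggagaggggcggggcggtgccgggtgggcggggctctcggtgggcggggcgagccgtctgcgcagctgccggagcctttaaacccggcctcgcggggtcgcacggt
Slc38a2: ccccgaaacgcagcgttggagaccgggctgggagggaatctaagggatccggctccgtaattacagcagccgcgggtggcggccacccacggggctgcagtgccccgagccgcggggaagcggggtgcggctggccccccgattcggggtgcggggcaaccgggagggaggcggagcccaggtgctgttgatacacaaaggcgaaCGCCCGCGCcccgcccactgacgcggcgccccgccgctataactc
Slc6a13: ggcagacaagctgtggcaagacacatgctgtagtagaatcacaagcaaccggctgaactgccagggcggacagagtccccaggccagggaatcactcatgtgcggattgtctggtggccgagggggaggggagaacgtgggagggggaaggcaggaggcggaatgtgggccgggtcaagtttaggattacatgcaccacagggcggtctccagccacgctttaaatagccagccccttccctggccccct
The windows are chr16:92058072-92058321 on the plus strand for Slc5a3, chr15:96699729-96699978 on the minus strand for Slc38a2 and chr6:121300038-121300287 on the plus strand for Slc6a13. That of Slc38a2 holds an EGR match 45 to 37 bases before the start, and the letters of the 7 motifs are not in the other two windows.

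Calls for Taxinine against BSA are given by class, beside 8.98% of the genes at the threshold. Amino acid carriers had 2 rises and 1 fall among 27 (11.1%), and mitochondrial carriers 2 rises among 37 (5.41%). Zinc transporters had 2 rises among 17 (11.8%), and acid-base carriers 1 rise among 14 (7.14%). Sugar carriers had 1 rise and 2 falls among 11 (27.3%), and monocarboxylate carriers 1 rise and 2 falls among 7 (42.9%). The nucleoside class had 1 rise and 1 fall among 4 (50%). Vitamin carriers had 1 rise among 4 (25%), and carriers of other metals 1 fall among 7 (14.3%). The higher shares belong to small classes, and the differences were not tested. Among the 10 highest members per kilobase, Slc38a2 was the only one called, with the rise given above. Of the others, Slc7a5 had 0.093 ± 0.038 (edgeR adjusted p = 0.144), Slc3a2 -0.0059 ± 0.038 (0.963) and the phosphate importer Slc20a1 -0.068 ± 0.043 (0.395). None of the 9 ion, 8 organic ion and peptide, 6 Golgi and endoplasmic reticulum, 4 lipid or 4 phosphate and vesicular members passed edgeR's adjusted threshold. An unadjusted edgeR p under 0.05 was found for 45 of the 161 members. That was so for 2990 of all 15109 genes and 2795 of the 11627 at the threshold.

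Against Control, the Taxinine libraries differed in 34 members that were higher and 26 that were lower by edgeR's adjusted test, 37.3% of the members beside 33.1% of all genes and 40.5% of the genes at the threshold. At least 2-fold, 5 members rose and 1 fell (2 and none among the 155 over the threshold in every group), beside 5.68% of all genes and 4.85% of those at the threshold. With plain totals the numbers of rises and falls were 23 and 70, beside 1105 and 6281 among all 15109 genes (48.9% called). Slc6a8 (1.37), Slc25a33 (1.05), Slc5a3 (0.98), Slc7a5 (0.92) and Slc38a2 (0.85) had the largest rises on the log2 scale among called members over the threshold in every group, and Slc36a1 (-0.71) and Slc6a13 (-0.59) the largest falls. In Slc38a2 and Slc5a3 the fold over Control was thus 1.80 and 1.97 with taxinine, and 1.33 and 1.22 after antigen alone.

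Genes that work with these carriers or report on their substrates were also read, from a list of 37 of which 33 were in the table. After antigen 16 rose and 1 fell, 51.5% of the 33, beside 34% of all genes and 41.5% of the genes at the threshold. With plain totals the numbers were 7 and 9 (48.5%, beside 52.8% of all genes), so this balance too rests on the scaling. Taxinine against BSA gave 6 rises and 2 falls, 24.2% beside 6.98% and 8.98%. With plain totals the numbers were 7 and 1 (24.2%, beside 7.43% of all genes). Of the TMM calls, 3 survived the removal of any single library, beside 412 of the 1055 calls over all genes. Those lost include Txnip (edgeR adjusted p up to 0.115) and Mt1 (up to 0.156). Txnip, whose protein lowers glucose uptake, was the one that fell after antigen on the TMM scale. It went from 1043 ± 55.8 CPM in Control to 434 ± 9.28 in BSA (-1.27, edgeR adjusted p = 2.27e-27). The metallothionein gene Mt1, which responds to zinc, went from 83.7 ± 2.22 to 179 ± 11.8 CPM (1.09, 5.89e-22). Tfrc, the transferrin receptor, stood at 36.6 ± 1.04, 69.1 ± 1.06 and 87.5 ± 2.35 CPM in Control, BSA and Taxinine (0.92 after antigen and 0.34 for Taxinine against BSA). Atf4, a transcription factor of the amino acid response, had 0.67 after antigen (edgeR adjusted p = 5.42e-19) and 0.084 for Taxinine against BSA (0.198).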

How the data were processed

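The submitters' processing notes name STAR 2.7.0f, limma 3.11 and the builds mm10 and GRCm38. How reads were assigned to genes, with which annotation and strand setting, is not given in the sources used here. Per the labels and file contents, the deposited table of counts gives whole-number counts of 15109 genes, each seen in at least 4 libraries. Its title speaks of TMM normalisation, but the values are whole numbers with unequal totals (8975371 to 14116976), and they stay unequal after TMM scaling, so they were used as raw counts. If the authors had scaled them, the counting error behind each value would differ. The deposited log2 table is log2 of CPM plus 1 on plain totals, recomputed from the counts to within 5.0e-05.

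The quasi-likelihood test of edgeR 4.0.16 (R 4.3.3) was run on the deposited counts with TMM factors, in 1 fit of all 9 libraries without a replicate term. P-values were adjusted by Benjamini-Hochberg over all genes, and calls needed an adjusted p under 0.05. Alternatives were plain totals, DESeq2 1.42.0, its size factors in edgeR, limma 3.58.1 on the deposited log2 values, a filter on low counts, a fit of the 2 groups compared, a replicate block and leaving out each library. Exon lengths and coordinates came from GENCODE M21 (GRCm38), where all 161 members were found. Substrate classes follow the family number, from general knowledge, so a single member can carry a substrate other than that of its class. Genes named are the 12 largest rises and falls, up to 3 members per class by smallest p, the 10 highest per kilobase, the 3 on either side of the threshold, the 5 left out and 4 genes of each partner list, and other members are named with their values only. Members, lists and tests were chosen with earlier results of these data known. Some results are not reported here.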

Additional observations from a re-analysis of the deposited data

How the results depend on the processing

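With plain library totals, and with limma on the deposited log2 values, rises after antigen numbered 18 and 18 and falls 95 and 90. Of all 15109 genes, 7977 and 7852 were then called after antigen. Falls for Taxinine against BSA numbered 4 and 4, and falls for Taxinine against Control 70 and 70. Rises were 15.9% of the calls after antigen with plain totals and 53.2% with TMM, 77.8% and 61.1% for Taxinine against BSA, and 24.7% and 56.7% for Taxinine against Control. DESeq2 gave 8 rises and 8 falls for Taxinine against BSA. Among the genes chosen for naming, values that changed sign with both plain totals and limma and were called with TMM or in the alternative, given once where their 2 decimals are equal, were, after antigen, Slc2a6 (-0.22), Slc24a3 (-0.089), Slc25a5 (-0.11), Slc7a8 (-0.10) and Slc6a6 (-0.064), and for Taxinine against Control, Slc24a3 (-0.063 and -0.061), Slc25a5 (-0.11), Slc7a8 (-0.12) and Slc6a6 (-0.033). Other called members that turned with plain totals were Slc43a3 after antigen (-0.063) and, for Taxinine against Control, Slc9a8 (-0.0011), Slc30a5 (-0.057), Slc35a3 (-0.022) and Slc39a1 (-0.047).

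Leaving out 1 library gave 31 to 34 rises and 26 to 32 falls after antigen, 6 to 14 and 4 to 8 for Taxinine against BSA, and 29 to 35 and 21 to 27 for Taxinine against Control. For Taxinine against BSA the numbers were 7 and 5 without Taxinine replicate 1, 6 and 4 without replicate 2, and 10 and 4 without replicate 3. A replicate block gave 34 and 29 after antigen, 11 and 7 for Taxinine against BSA and 35 and 27 for Taxinine against Control. Libraries with the same number did not deviate together (correlations of -0.036 to 0.0084). Values this near 0 do not settle whether the numbers pair samples, and the labels do not say. The other alternatives kept all 6 counts within 1.5 times. Depth limits the members near the threshold, where a library holds as few as 2 counts.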

Other observations

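SLC genes outside the symbol pattern numbered 20, the Slco genes and the lettered subfamilies of family 35. After antigen 4 rose and 5 fell by edgeR's adjusted test, 45% beside 34% of all genes and 41.5% of the genes at the threshold. With plain totals 4 rose and 11 fell, 75% beside 52.8% of all genes. Taxinine against BSA gave 1 rise and 1 fall, 10% beside 6.98% and 8.98%, and each call was lost without at least 1 single library. Slco4a1, an organic anion transporter, stood at 47.98 ± 5.61 CPM in Control, 192 ± 12.5 in BSA and 166 ± 5.55 in Taxinine (mean ± SD, n = 3), with a log2 fold change after antigen of 2.00 (edgeR adjusted p = 3.54e-29). Slc35e4 rose from 5.45 ± 0.318 to 19.6 ± 1.25 CPM (1.85, edgeR adjusted p = 3.32e-18). Slc35d1, which carries nucleotide sugars, rose by 0.46, and the GDP-fucose transporter Slc35c1 had -0.56.

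Among the 5 genes left out by name, the glucose carriers Slc2a3 and Slc2a1 had log2 fold changes after antigen of 2.03 and 0.38, the cystine-glutamate exchanger Slc7a11 0.50 and the vesicular monoamine transporter Slc18a2 0.27. All 4 passed edgeR's adjusted test. The serotonin transporter Slc6a4 had 0.12 and did not pass. For Taxinine against BSA, Slc2a3 had -0.42 and Slc6a4 -0.95, both called, and Slc6a4 had an edgeR adjusted p of 0.117 without Taxinine replicate 3.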
